A study of Homo sapiens with 6 samples.

Results

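The insulin-like growth factor (IGF) axis was followed in IMR-90 human fetal lung fibroblasts through 10 genes. They are the ligands IGF1 and IGF2, the receptors IGF1R and IGF2R, and the binding proteins IGFBP2, IGFBP3, IGFBP4, IGFBP5, IGFBP6 and IGFBP7. All 10 were matched by symbol among the 23754 features of the table, and 9 of them passed the filter on low counts that left 13991 features for testing. IGF1 did not pass. The rule that picks them uses no measured value, but it was set with earlier results of these data known.

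IMR-90 is an established line of diploid fibroblasts. The cells carried a doxycycline-inducible lentiviral cassette (Tet-pLKO-puro) with 1 hairpin, sh-2, directed against the zinc finger gene ZNF469, and the cassette and the puromycin selection were shared by both groups. The 3 DOX- libraries came from uninduced cells, which the sample labels call wild-type, and the 3 DOX+ libraries came from cells given doxycycline at 2 µg/mL for 4 days. Because no library combined doxycycline with another hairpin, effects of the drug and of the hairpin cannot be told apart. The submitters describe the 3 libraries of each group as technical replicates, so the p-values below measure the spread between libraries, which may hold no variation between cultures.

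IGF1 and IGF2 are secreted peptides that signal growth and survival through the tyrosine kinase receptor IGF1R, whereas IGF2R, the cation-independent mannose 6-phosphate receptor, takes IGF2 into the cell for degradation and carries lysosomal enzymes. The IGF-binding proteins hold the ligands in the extracellular space, prolong their life and release them when proteases cut the binding protein. Several also bind the matrix or cell surface and act without the ligand, and lung fibroblasts are a known source of them.

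Each library held between 34057675 and 36120260 counts. ZNF469 itself (chr16:88382959-88440757) stood at 118, 112 and 126 CPM (counts scaled to library size, with TMM factors) in DOX- and at 80.4, 80.4 and 79.6 in DOX+, a log2 fold change of -0.57 (SE 0.0477, edgeR adjusted p = 3.31e-05). All 10 fibroblast markers were expressed, and their summed level was 36757 to 37886 CPM in DOX- against 27382 to 28286 in DOX+, with 5 of the 10 lower at an FDR of 0.05 (COL1A1, COL1A2, COL3A1, DCN and LUM). COL1A1 and COL1A2 made up most of the sum, and the other 5 markers were not called, with log2 fold changes of -0.02 for VIM, -0.0030 for PDGFRA, -0.02 for PDGFRB, 0.04 for THY1 and 0.12 for S100A4. By RT-qPCR, the authors report lower COL1A1, COL1A2 and COL3A1 after ZNF469 knockdown in IMR-90 cells. In bulk RNA, fewer cells of a type and less RNA per cell cannot be told apart. The part of the fibroblast markers in the values below was not tested. Of the markers of other cell types, 7 of 8 epithelial, 5 of 6 endothelial and 5 of 6 leukocyte genes lay below 1 CPM, and PECAM1 and CDH5 were at 0 in every library. The exceptions were MUC1, TEK (mean 21.0 CPM) and CD68 (62.9). Smooth muscle and pericyte genes were expressed, except DES, with a summed level of 1096 to 1155 CPM in DOX- and 1122 to 1203 in DOX+. None of these 6 genes was called by edgeR, with 1 at an unadjusted p under 0.05. MYH11, at only 1.85 to 3.76 CPM, and RGS5 were higher in every DOX+ library than in any DOX- library. Of all features, 20.3% did not overlap between the groups, in either direction. DOX+ replicate 2 stood apart on the first principal component, at 32.8 against -12.6 to 0.524 for the other libraries, so the value without it is given for IGF1R, IGFBP2, IGFBP5 and IGFBP6, the axis genes it moved most in proportion.

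The promoters of the axis ranged from CpG-free to CpG-dense. RefSeq promoter sequences (GRCh38.p14) were found for 8 of the 10 genes, with 11 entries because IGF1 and IGFBP2 have several starts. IGF2 and IGFBP7 had no entry. The 250 bases before 3 of the starts are shown, since they belong to the ligand with the fewest counts and to a pair of the most abundant binding proteins. Capitals mark CpG dinucleotides.

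IGF1, minus strand, chr12:102481748-102481997: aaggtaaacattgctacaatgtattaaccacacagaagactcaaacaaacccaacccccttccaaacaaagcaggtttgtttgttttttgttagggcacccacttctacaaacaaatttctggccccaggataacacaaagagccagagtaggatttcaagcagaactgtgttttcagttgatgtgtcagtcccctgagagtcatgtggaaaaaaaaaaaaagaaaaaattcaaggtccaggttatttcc

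IGFBP4, plus strand, chr17:40443200-40443449: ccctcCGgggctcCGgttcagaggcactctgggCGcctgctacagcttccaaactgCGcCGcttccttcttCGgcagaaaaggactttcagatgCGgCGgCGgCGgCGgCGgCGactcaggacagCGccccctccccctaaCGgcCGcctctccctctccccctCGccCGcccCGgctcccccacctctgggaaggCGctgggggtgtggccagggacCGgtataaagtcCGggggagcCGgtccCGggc

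IGFBP5, minus strand, chr2:216695550-216695799: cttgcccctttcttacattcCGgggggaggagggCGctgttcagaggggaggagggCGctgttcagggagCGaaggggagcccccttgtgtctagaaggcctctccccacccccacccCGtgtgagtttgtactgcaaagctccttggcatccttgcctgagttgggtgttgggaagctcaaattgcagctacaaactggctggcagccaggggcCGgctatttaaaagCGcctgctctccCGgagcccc

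The IGF1 sequence held 0 CpG and had a GC content of 39.6%, and the window at its other start held 1. Of all 35116 promoters in the reference, 14.7% held at most 1 CpG, and the median was 11. The IGFBP4 window held 24, the IGFBP5 window 8 and the IGF1R window 48, and the latter count was above that of 99.7% of promoters. The letters TATAAA, searched on both strands, were found in the IGFBP4 window alone among the 11 entries, starting at position -29 on the gene strand. They were present in 10.7% of all promoters on either strand. Only this exact spelling was searched, so variants such as the letters tatttaaa in the IGFBP5 window were not counted. These matches describe the sequence and do not identify a bound site.

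Transcript levels within the axis spanned a wide range, and the binding proteins took most of it. Levels between genes were compared as FPKM, the unit per transcript length that the authors deposited. IGFBP7, which binds IGFs only weakly and is abundant in vessel walls and stroma, was the most abundant gene of the axis at a mean of 875 FPKM over the 6 libraries (range 847 to 920). That level exceeded 99.7% of the annotated genes tested. IGFBP5, a matrix-binding protein that forms complexes with IGF and the acid-labile subunit, followed at 611 FPKM (598 to 624). IGFBP4, an inhibitor of IGF action, reached 552 FPKM (513 to 579).

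The next level was that of IGFBP3, the main carrier of IGF in serum, at 275 FPKM (271 to 279). IGFBP6, which prefers IGF2 over IGF1, had a mean of 61.1 FPKM (55.5 to 64.2). IGF2R stood at 22.6 FPKM (19.8 to 25.1). Below it came IGFBP2, a binding protein with an integrin-binding motif, at 16.7 FPKM (14.95 to 17.9), then IGF1R at 7.08 (6.62 to 7.61) and IGF2 at 3.98 (3.51 to 5.05). No neighbours in this order overlapped across the 6 libraries, so the order was the same in every library.

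**Figure D1:**
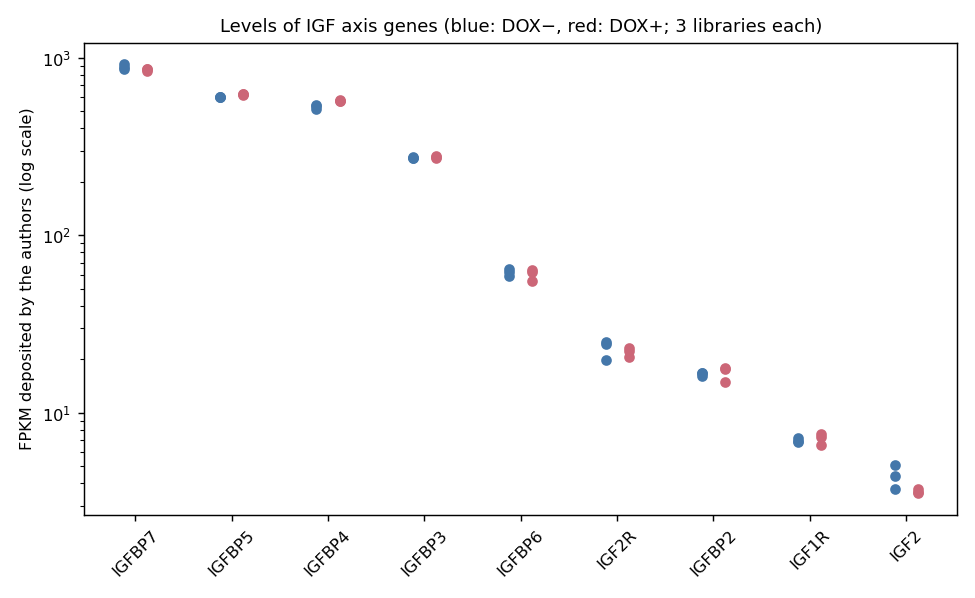
Deposited FPKM (log scale) of the 9 tested genes of the IGF axis, ordered by level, with 1 point per library (blue DOX-, red DOX+, 3 each). Values fall from 875 FPKM for IGFBP7 to 3.98 for IGF2 on average, and the groups lie close together at every gene. IGF1 is not drawn, since it was listed at 0 in 3 libraries.

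IGF1 was not detectable at a usable level. Its counts were 6, 4 and 0 in DOX- and 0, 3 and 0 in DOX+, at or near the floor of 3 counts per library, which equals 0.0831 to 0.0881 CPM. No fold is given for it. IGF2, by comparison, held 726 to 932 counts. Counts were as low for another binding protein and a partner. IGFBP1 had 0, 4 and 2 counts in DOX- and 0, 0 and 2 in DOX+, and IGFALS, the acid-labile subunit, had 0 to 4 counts. INS, the insulin gene, was at 0 in all 6 libraries.

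Within the 6 binding proteins, IGFBP7, IGFBP5 and IGFBP4 made up 85.2% of the summed FPKM in DOX- and 85.3% in DOX+. The share of IGFBP7 was 37.5% ± 0.929 (SD, n = 3) in DOX- and 35.7% ± 0.184 in DOX+, and that of IGFBP4 was 22.4% ± 0.744 and 23.8% ± 0.0946. IGFBP5 contributed 25.3% ± 0.201 and 25.8% ± 0.107. These shares were not tested. On raw counts, which favour long transcripts, IGFBP5 alone took 54.2% and 54.7%.

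The summed FPKM of IGFBP2 to IGFBP7 was 2373 ± 12.3 (SD, n = 3) in DOX- and 2406 ± 22.1 in DOX+. The summed FPKM of IGFBP2 to IGFBP6, the classical high-affinity proteins present here, exceeded that of IGF2 by a ratio of 344 ± 50.4 in DOX- and 431 ± 11.5 in DOX+. The individual ratios ran from 296 to 396 without induction and from 418 to 439 with it, so the groups did not overlap. The FPKM of IGF2 alone did overlap, with 3.697 in DOX- replicate 2 and 3.700 in DOX+ replicate 1. Its log2 difference was -0.29 in mean FPKM, against -0.20 by edgeR on counts. The ratio to IGF2 was not tested, and the share of other genes with such a separation was not computed. IGF2R exceeded IGF1R by a ratio of 3.32 ± 0.490 in DOX- and 3.08 ± 0.367 in DOX+, which overlapped.

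The main question was whether induction of the hairpin altered the axis, and no gene of it passed the test. At an FDR of 0.05, 0 of the 9 tested genes were called by edgeR, against 156 of 13991 features in all (1.12%, with 0.4% higher and 0.715% lower). DESeq2 and limma-voom also called 0 of the 9. DESeq2 called 5.62% of the 9379 features to which it gave an adjusted p, and limma-voom called 1.1% of 13991, so these shares have different bases. At an unadjusted p under 0.05, edgeR, DESeq2 and limma-voom each had 3 of the 9 genes, IGFBP7, IGFBP4 and IGF2 by edgeR, against 15% of all features by edgeR. In 3 of the 9 the groups did not overlap in CPM, as in 20.3% of all features, and all 3 were lower in DOX+ (10.6% of all features). The median log2 fold change was -0.02 over the 9 genes and -0.0019 over all features tested.

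**Figure D2:**
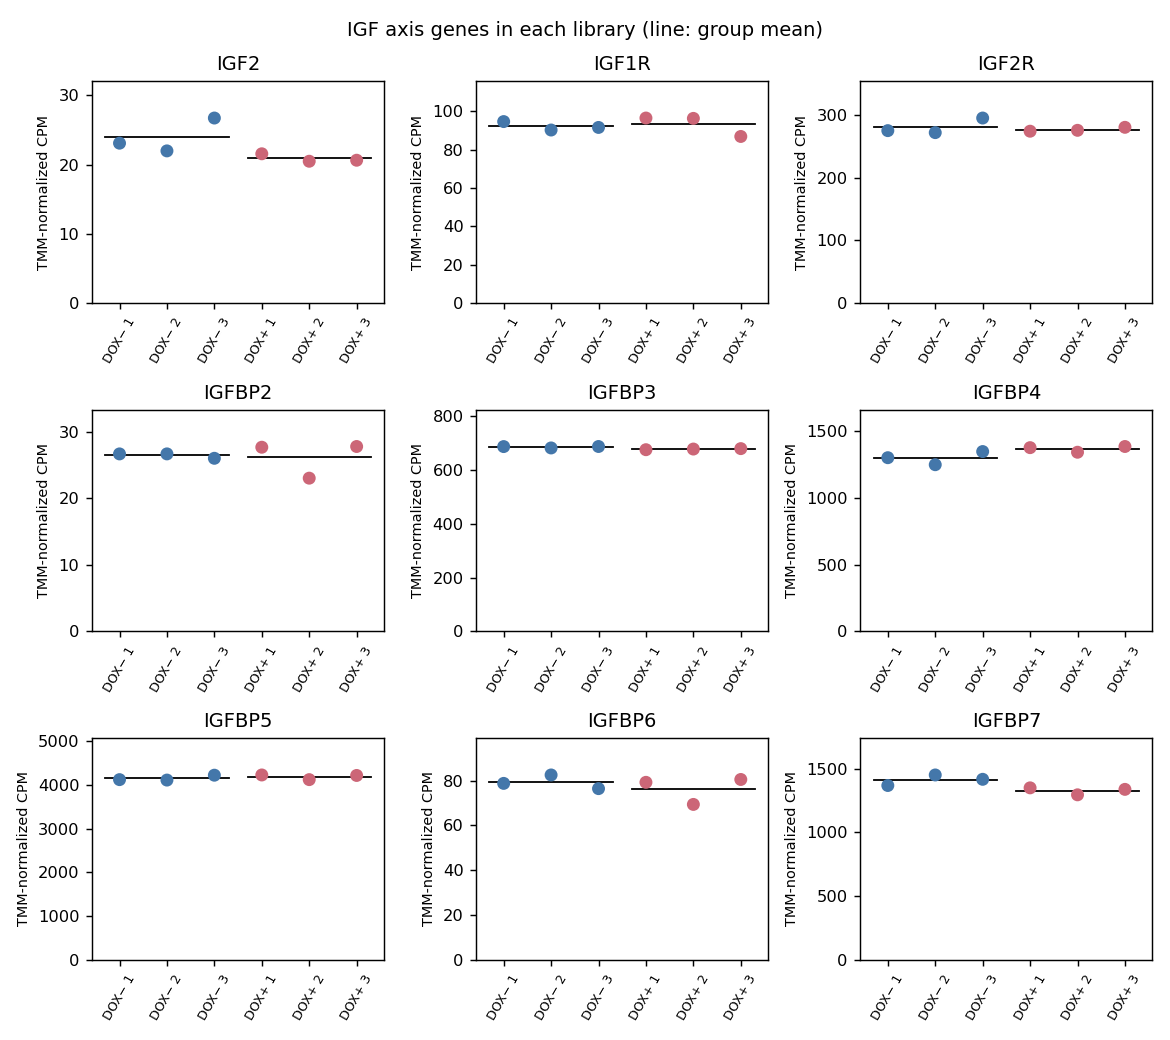
TMM-normalized CPM (axis from 0) of the 9 tested genes in each library, DOX- in blue and DOX+ in red, with a line at each group mean. The groups lie at nearly equal heights in all panels. IGF2, IGFBP3 and IGFBP7 are the panels in which every DOX+ point is under every DOX- point.

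The ligand IGF2 (chr11:2129112-2158391) showed the largest difference of the axis. It stood at 23.1, 21.98 and 26.7 CPM in DOX- and at 21.6, 20.5 and 20.6 in DOX+. The DOX+ libraries were close together, and the highest DOX- library lay well above the others. The log2 fold change was -0.20 (SE 0.0780, 95% CI -0.36 to -0.03), with an unadjusted p of 0.0260 and an adjusted p of 0.258 by edgeR. Without DOX- replicate 3 it was -0.11 (edgeR adjusted p = 0.639). An exact permutation test gave p = 0.1, the smallest that 3 libraries against 3 allow. GENCODE places a second feature annotated as IGF2 over the same locus on the same strand. It held 3 counts in 1 library and 0 in the rest, and INS-IGF2 was at 0 throughout. These features thus held few of the counts assigned at the locus. Exons of INS-IGF2 cover 998 of the 5580 bases of the main IGF2 transcript. How reads in shared bases were counted is not given in the sources used here.

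IGF1R (chr15:98648539-98964530) gave 94.7, 90.3 and 91.6 CPM in DOX- and 96.5, 96.4 and 86.9 in DOX+. The groups overlapped, with the lowest value in DOX+ replicate 3. Its log2 fold change was 0.02 (SE 0.0485, 95% CI -0.09 to 0.12, edgeR adjusted p = 0.914), and -0.0063 without DOX+ replicate 2.

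IGF2R (chr6:159969082-160113507) gave 275, 272 and 295 CPM in DOX- and 274, 276 and 280 in DOX+. Here too the groups overlapped, at a log2 fold change of -0.02 (SE 0.0382, 95% CI -0.10 to 0.06, edgeR adjusted p = 0.849). The FPKM of IGF2R spread more widely between libraries than its CPM, with coefficients of variation of 9.92% and 3.31%. The length implied by the ratio of CPM, here without TMM factors, to FPKM ran from 11069 to 13817 bases across libraries for this gene. For IGF2 the implied length ran from 5224 to 5919, so the deposited FPKM did not follow the counts at a fixed length.

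IGFBP7 (chr4:57030773-57110385) had the smallest p of the axis. Its level was 1367, 1450 and 1416 CPM in DOX- and 1349, 1294 and 1337 in DOX+. Every DOX+ library was lower than every DOX- library, by a narrow margin. The log2 fold change was -0.09 (SE 0.0278, 95% CI -0.15 to -0.03), with an unadjusted p of 0.00707 and an adjusted p of 0.160 by edgeR. It was -0.04 (edgeR adjusted p = 0.411) once a trend on transcript length was removed. The gene overlaps POLR2B, on the other strand, over 260 of the 1427 bases of its main transcript. POLR2B held 6135 to 6677 counts, and whether the counting used strand is not given in the sources used here.

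IGFBP4 (chr17:40443450-40457725) was the abundant binding protein with a difference in the other direction. It gave 1300, 1247 and 1346 CPM in DOX- and 1375, 1341 and 1383 in DOX+. The groups overlapped by a small amount, since DOX+ replicate 2 fell below DOX- replicate 3. The log2 fold change was 0.07 (SE 0.0293, 95% CI 0.01 to 0.14), with an unadjusted p of 0.0249 and an adjusted p of 0.252 by edgeR. With a trend on GC content removed it was 0.15 (edgeR adjusted p = 0.000755), the only alternative in which a gene of the axis was called.

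IGFBP3 (chr7:45912245-45921874) was the most even gene across libraries, at 688, 683 and 688 CPM in DOX- and 676, 679 and 680 in DOX+. The groups did not overlap, yet the difference was small, with a log2 fold change of -0.02 (SE 0.0263, 95% CI -0.07 to 0.04, edgeR adjusted p = 0.813). Its neighbour IGFBP1, with the counts given above, lies 18.6 kb away on the other strand.

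IGFBP5 (chr2:216672105-216695549) carried the most counts of the axis, at 4120, 4110 and 4221 CPM in DOX- and 4226, 4120 and 4215 in DOX+. The groups overlapped, and the log2 fold change was 0.01 (SE 0.0188, 95% CI -0.03 to 0.05, edgeR adjusted p = 0.801), and 0.03 without DOX+ replicate 2. On the FPKM scale its values were 601, 598 and 603 in DOX- and 622, 618 and 624 in DOX+, which did not overlap. The difference in log2(FPKM + 0.1) was 0.05 (limma adjusted p = 0.473), so the groups were apart in FPKM and overlapped in CPM. IGFBP4 showed the same, whereas IGF2 and IGFBP3 were apart in CPM and overlapped in FPKM. With library size scaling in place of TMM, the edgeR log2 fold change of IGFBP5 was 0.03. The share of all features apart in FPKM was not computed.

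IGFBP2 (chr2:216632828-216664436) lies 7.67 kb from IGFBP5, and the genes point towards each other. Its level was 26.7, 26.7 and 26.0 CPM in DOX- and 27.7, 23.0 and 27.8 in DOX+. The lowest value came from DOX+ replicate 2. The log2 fold change was -0.02 (SE 0.0746, 95% CI -0.18 to 0.15, edgeR adjusted p = 0.946), and 0.07 without that library. Neither of these neighbours was called.

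IGFBP6 (chr12:53097436-53102345) gave 78.7, 82.5 and 76.4 CPM in DOX- and 79.2, 69.4 and 80.5 in DOX+. Again the lowest value was that of DOX+ replicate 2. The log2 fold change was -0.05 (SE 0.0568, 95% CI -0.18 to 0.07, edgeR adjusted p = 0.711), and 0.01 without that library.

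The intervals rest on the spread between libraries in 1 fit. They do not bound changes that vary between cultures or with the processing. Over the 9 tested genes the bound farthest from 0, without adjustment for multiple genes, was -0.36 on the log2 scale, for IGF2. For ZNF469 the interval was -0.67 to -0.46 in the same fit.

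**Figure D3:**
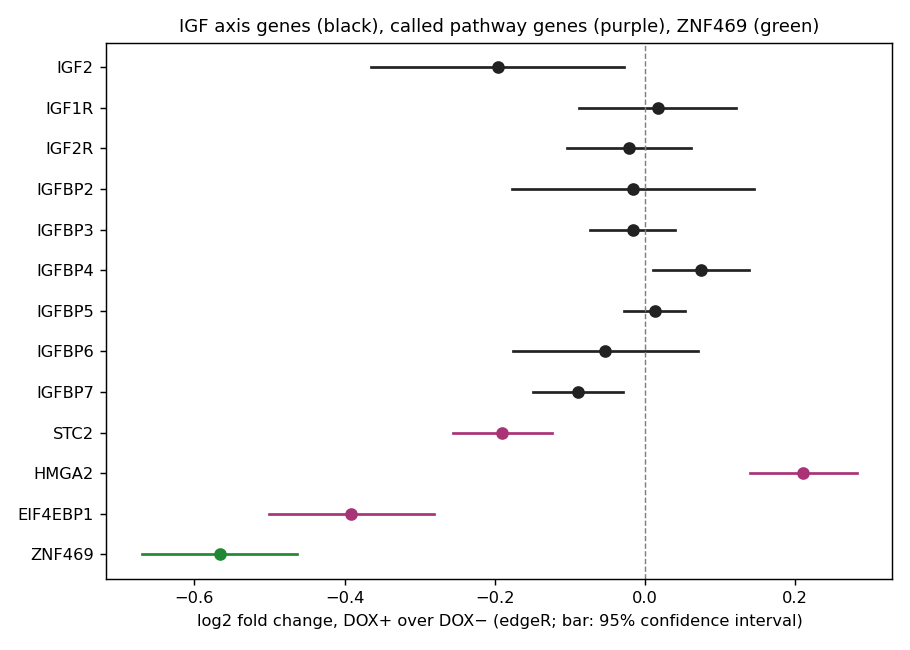
Log2 fold change of DOX+ over DOX- by edgeR, with 95% confidence intervals as bars, for the 9 tested genes of the IGF axis (black), the 3 pathway genes past an FDR of 0.05 (purple) and ZNF469 (green). The axis genes lie between -0.20 and 0.07, and ZNF469 lies at -0.57.

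Under the alternative settings, IGF1R, IGF2R, IGFBP2, IGFBP3, IGFBP5 and IGFBP6 changed sign under at least 1 alternative. IGF2, IGFBP4 and IGFBP7 kept their sign in all 18 alternatives.

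**Figure D4:**
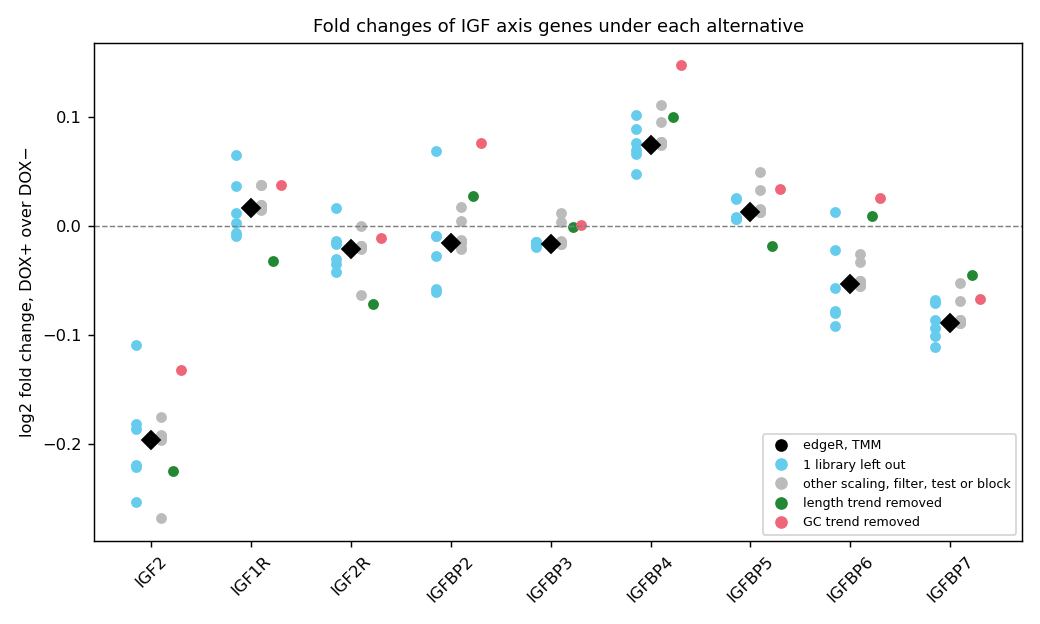
Log2 fold change of DOX+ over DOX- for each tested gene of the IGF axis, from edgeR with TMM scaling (black diamonds) and under 18 alternatives (points, coloured by kind). IGFBP4 reached 0.15 with the GC trend removed, and IGF2 ranged from -0.27 to -0.11.

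The genes whose pattern over the 6 libraries was most like that of IGFBP7 were SNRPD2 (Pearson r = 0.999), TPRA1 (0.995), BANF1 (0.995), RPL41 (0.994) and RPL37A (0.991). SNRPD2 is a core protein of spliceosomal particles, and RPL41 and RPL37A are proteins of the large ribosomal subunit. They were the highest of 5575 genes compared, of which 162 had an r over 0.9, and none of the 5 was past the FDR. The points share the same 6 libraries and their depth, and the correlations are a description.

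Other genes of the pathway were taken from 8 lists with 91 genes, of which 74 passed the filter. Of these, 3 were past an FDR of 0.05 by edgeR, 1 higher (HMGA2) and 2 lower (STC2 and EIF4EBP1), which is 4.05% against 1.12% of all features. The lists were chosen with earlier results of these data known, so these shares are a description and were not tested. The median log2 fold change of the 74 was 0.03, against -0.0019 over all features. The 3 called genes belonged to different lists, and none of them is a ligand, receptor or binding protein.

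Proteases free IGF from its binding proteins, and of the 6 tested proteases and inhibitors only STC2 was called. STC2, stanniocalcin 2, is an inhibitor of the protease PAPPA that cleaves IGFBP4. It stood at 486, 505 and 493 CPM in DOX- and at 433, 428 and 440 in DOX+, without overlap. It fell by 0.19 on the log2 scale (SE 0.0306, edgeR adjusted p = 0.00687). Without DOX+ replicate 1 it was also at -0.19, but the call was lost (edgeR adjusted p = 0.0680). PAPPA gave 27.8, 26.1 and 25.8 CPM in DOX- and 28.9, 26.0 and 27.8 in DOX+ (log2 fold change 0.05, edgeR adjusted p = 0.742). STC1 and the protease ADAM9 were at 0.04 and 0.02 (edgeR adjusted p = 0.702 and 0.725).

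At the IGF2 locus and among the proteins that bind IGF2 mRNA, 1 of 5 tested genes was called. HMGA2, a chromatin protein known to promote transcription of IGF2BP2, stood at 629, 618 and 598 CPM in DOX- and at 704, 739 and 693 in DOX+. Every DOX+ library was above every DOX- library, and HMGA2 rose by 0.21 on the log2 scale (SE 0.0330, edgeR adjusted p = 0.00615). IGF2BP2 itself was at -0.01 (edgeR adjusted p = 0.907), IGF2BP1 at 0.11 (0.346) and PLAG1, an activator of the IGF2 promoters, at -0.13 (0.569). H19, the imprinted neighbour of IGF2, was on the list, but no feature matched it, so it was not analysed here.

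In the list of PI3K, AKT and mTOR genes, 1 of 19 tested was called. EIF4EBP1, the translation repressor that mTOR phosphorylates, stood at 61.8, 59.4 and 65.7 CPM in DOX- and at 48.9, 48.0 and 45.6 in DOX+. The groups were well apart, and it fell by 0.39 on the log2 scale (SE 0.0509, edgeR adjusted p = 0.00196), a call kept in all 18 alternatives. EIF4EBP1 and STC2 are both also known targets of the stress-response factor ATF4, but a part of ATF4 in these values was not tested. AKT1 and AKT2 were at 0.0060 and -0.06 (edgeR adjusted p = 0.967 and 0.620). RICTOR and PIK3R3 had the next smallest p-values of the list, at 0.17 and 0.20 (edgeR adjusted p = 0.191 and 0.315).

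**Figure D5:**
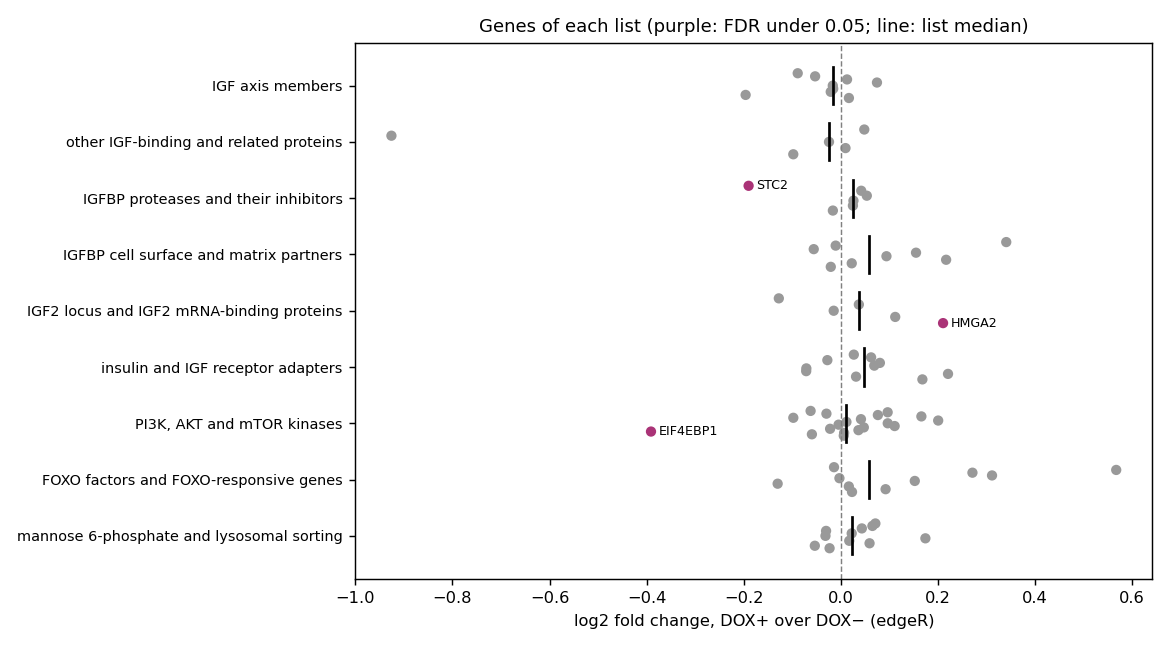
Log2 fold change of DOX+ over DOX- by edgeR for every tested gene of the IGF axis and of 8 related lists, 1 point per gene and a line at each list median. Purple marks the 3 genes past an FDR of 0.05, which are STC2, HMGA2 and EIF4EBP1. The list medians lie between -0.02 and 0.06.

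No gene was called among the 8 tested partners of the binding proteins at the cell surface and in the matrix, where the median was 0.06. The integrin subunit ITGAV came nearest, at 240, 255 and 235 CPM in DOX- and 283, 302 and 263 in DOX+ (log2 fold change 0.22, edgeR adjusted p = 0.0587). It was called in 7 of 18 alternatives, DESeq2 among them. ITGB1 and ITGB3, which pair with integrin alpha chains, were at 0.09 and 0.15 (edgeR adjusted p = 0.181 and 0.184), and were called in 1 and 0 of the 18 alternatives.

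Among the other IGF-binding and related proteins, 0 of 5 tested genes were called by edgeR, and 1 had an unadjusted p under 0.05. CCN1, a matrix protein with an IGF-binding domain, was at -0.10 (edgeR adjusted p = 0.160), and DESeq2 called it (adjusted p = 0.0412). CCN2, connective tissue growth factor, was at 0.0096 (edgeR adjusted p = 0.893), with DOX- values of 1196, 1187 and 1197 CPM and DOX+ values of 1209, 1182 and 1213. CCN4, at a fraction of 1 CPM in every library, was at -0.93 with an interval of -2.18 to 0.32 (edgeR adjusted p = 0.484).

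Of 10 tested receptor adapters and relatives of the insulin receptor, edgeR called 0, and 1 (PTPN11) had an unadjusted p under 0.05. PTPN11, a phosphatase downstream of the receptors, was at 0.08 (edgeR adjusted p = 0.294), GAB1 at 0.17 (0.479) and the insulin receptor INSR at 0.22 (0.490). IRS1 and IRS2, the docking proteins of IGF1R, were both at -0.07 (edgeR adjusted p = 0.495 and 0.570). IGF1R exceeded INSR by an FPKM ratio of 12.8 ± 1.93 (SD, n = 3) in DOX- and 11.0 ± 0.477 in DOX+.

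FOXO factors are held out of the nucleus by AKT, and 0 of 10 tested FOXO genes and targets were called by edgeR, with 2 at an unadjusted p under 0.05. CITED2, a transcriptional co-regulator, was at -0.13 (edgeR adjusted p = 0.0994) and was called in 4 of 18 alternatives. SESN1 was at 0.27 (edgeR adjusted p = 0.260) and FOXO4 at 0.31 (0.417). FOXO1 was near the detection limit, whereas FOXO3 was at 60.4 to 69.0 CPM over the 6 libraries.

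The mannose 6-phosphate route that IGF2R serves was likewise without a called gene by edgeR, 0 of 11 tested, with 1 at an unadjusted p under 0.05. GNPTAB, a subunit of the enzyme that makes the mannose 6-phosphate tag, was at 0.17 (edgeR adjusted p = 0.124), and DESeq2 called it (adjusted p = 0.0366). The smaller receptor M6PR was at 0.02 (edgeR adjusted p = 0.855). The sorting genes VPS35 and SORT1 were both at 0.07 (edgeR adjusted p = 0.405 and 0.446).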

How the data were processed

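RNA from 3 DOX- and 3 DOX+ libraries was sequenced as poly(A)-selected, paired-end reads. The authors used HISAT2 for alignment to GRCh38 and StringTie thereafter, and versions, annotation and the counting step are not given in the sources used here. The deposited counts are whole numbers without normalization. The deposited FPKM values were normalized by the authors to depth and transcript length. Coordinates came from GENCODE 44, which may not be the authors' release. In all, 17 stray lines were dropped.

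Counts were tested with edgeR 4.0.16 in R 4.3.3 (filterByExpr with a minimum count of 10, TMM, quasi-likelihood test, Benjamini-Hochberg over 13991 features). The standard error is |log2 fold change| over the root of F. FPKM entered shares, levels and 1 added limma test. Single-gene permutation tests were exact and two-sided. Floors cover counting error only.

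The genes and lists were chosen with earlier results of these data known. Named are the 10 genes, ZNF469, in each list the genes past an FDR of 0.05 and the 3 smallest p-values, genes at or near 0, and the 5 genes most correlated with IGFBP7 (mean log2 CPM over 5). PAPPA, IGF2BP2, AKT1, AKT2, IRS1, IRS2, M6PR, FOXO1 and FOXO3 were named after their values were seen. The values of some list genes are not reported here.

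Alternatives were other scalings and filters, DESeq2 1.42.0, limma-voom (limma 3.58.1), fits without each library in turn, a block for the replicate number, and lowess trends (span 0.3) on length or GC content, known for 91.3% of features. Limma on log2(FPKM + 0.1) and edgeR with robust dispersions were added after the data were seen. The scripts were tested on simulated counts. The share of false calls was close to the FDR aimed at where every simulated gene lay on the dispersion trend. It was well above that FDR where each gene took its own dispersion as estimated from these data, some of them far above the trend. The dispersions of the tested IGF genes and of STC2, HMGA2 and EIF4EBP1, as coefficients of variation, were 0.790 to 1.16 times the trend.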

Additional observations from a re-analysis of the deposited data

How the results depend on the processing

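Of the 9 tested IGF axis genes, 0 were called in every alternative but 1: removing the GC trend called 1, IGFBP4. Sign changes were of small values. With library size scaling IGFBP2 was at 0.0045 and IGFBP3 at 0.0041. With the length trend removed IGF1R was at -0.032, IGFBP2 at 0.028, IGFBP5 at -0.018 and IGFBP6 at 0.0095. With the GC trend removed IGFBP2 was at 0.076, IGFBP3 at 0.0010, IGFBP6 at 0.026 and ADAM9 at -0.040. On log2(FPKM + 0.1) IGFBP2 was at 0.017 and IGFBP3 at 0.012. Leaving out 1 library at a time gave -0.0087 to 0.066 for IGF1R, -0.042 to 0.017 for IGF2R, -0.061 to 0.069 for IGFBP2 and -0.092 to 0.013 for IGFBP6. The causes were not tested.

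Pathway list genes called higher numbered 2 with library size scaling, without a filter, with the GC trend removed or with robust dispersions, 3 with DESeq2, and 1 to 2 with 1 library left out. Those called lower numbered 4 with DESeq2, 3 with the GC trend removed or with robust dispersions, and 1 to 2 with 1 library left out. STC2 and HMGA2 were not called on log2(FPKM + 0.1) (limma adjusted p = 0.141 and 0.114). Over all features, 56 higher and 100 lower became 88 and 77 with library size scaling, 127 and 163 without a filter, 260 and 267 with DESeq2, 127 and 163 with the GC trend removed, and 149 and 192 with robust dispersions. They became 19 and 54 at an FDR of 0.01, and 2 and 4 where a change of more than 1 on the log2 scale was also required. With 1 library left out the ranges were 20 to 69 and 54 to 92. The share of IGFBP7, IGFBP5 and IGFBP4 was 86.0% and 86.1% in DOX- and DOX+ per annotated length, and 89.6% and 89.8% on raw counts.

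Same-numbered libraries deviated from their group means with correlations of -0.02, -0.04 and 0.04. These values gave no sign that the numbers pair the samples, but so few libraries cannot exclude it. With the replicate number as a block, 0 axis genes, 3 list genes higher (HMGA2, ITGAV and ITGB1), 3 lower, and 135 higher and 157 lower features in all were called. The tested axis genes each held at least 726 counts per library, and IGF1 had too few for a test.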
